A study of Aspergillus nidulans with 24 samples.

Results

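In Aspergillus nidulans, a filamentous fungus, 70 of the 8728 genes measured were high in wild type mycelium on fructose, low in wild type mycelium on glucose, and much lower on fructose in a strain without areB. These fructose-derepressed genes with a lower level in that strain were chosen from the authors' mean normalized counts, after adding 5 to each mean. Such a mean is a level per gene and group that is not divided by gene length. The lower of the 2 wild type fructose means had to be at least 4 times the higher of the 2 wild type glucose means. The wild type mean also had to be at least 4 times the mean of the deletion strain on fructose, both with urea and with ammonium, which 2.75 % and 2.27 % of all genes reached. Inside these limits lay 76 genes, of which 6 were left out by name because they belong to other gene groups: hpdA, hmgA, fahA, maiA, rosA and qutG. The first condition alone took 324 genes, or 3.71 % of all genes, and the 248 of them outside the limits on the deletion strain are called the other fructose-derepressed genes below. Since these means chose the genes, their high level on fructose in wild type and their lower level on fructose in the deletion strain are a description with no test.

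The study crossed 2 strains with 4 media, and each of these 8 combinations had 3 biological replicates, which makes 24 libraries. The areBΔ strain had areB replaced by A.f. pyrG, as the labels write it, and also carried pyrG89, argB2, nkuAΔ::argB, pabaB22 and riboB2, while the wild type carried biA1. Both strains were grown as mycelium in minimal medium for 9 to 11 h at 37 °C, on 0.1 % fructose with 5 mM urea, 0.1 % fructose with 10 mM ammonium tartrate, 1 % glucose with 5 mM urea, or 1 % glucose with 10 mM ammonium tartrate. Strain background and loss of areB, kind and amount of sugar, and ammonium and tartrate cannot be told apart in this design, and each genotype was 1 strain by the labels. In bulk mycelium, fewer cells of a type and less RNA per cell cannot be told apart either.

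AreB is a transcription factor of the GATA family, zinc finger proteins that bind GATA sites in promoters. In this fungus the related factor AreA activates genes for the use of poor nitrogen sources, and AreB is known to act against AreA at some of these genes. Glucose keeps many genes for other carbon sources off through the repressor CreA, and a sugar that represses weakly, such as fructose at a low amount, lets them come on, which is called carbon derepression. Genes that come on in such conditions include those that break down amino acids for carbon, secreted hydrolases, and genes of development.

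No values per library were used here, so the depth of each library is unknown, group means carry no error of their own, and no replicate could be set aside. The sums of the authors' means lay between 2.75e+06 and 3.01e+06 over the 8 groups. The areB mean was 0 in all 4 groups of the areBΔ strain, against wild type means of 67.9 to 93.9, as the labels require. The conidiation regulator brlA, a marker of asexual sporulation that vegetative mycelium should lack, had means of 0 to 1.49 in the areBΔ groups, against 0 to 5.35 in wild type groups.

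**Figure D1:**
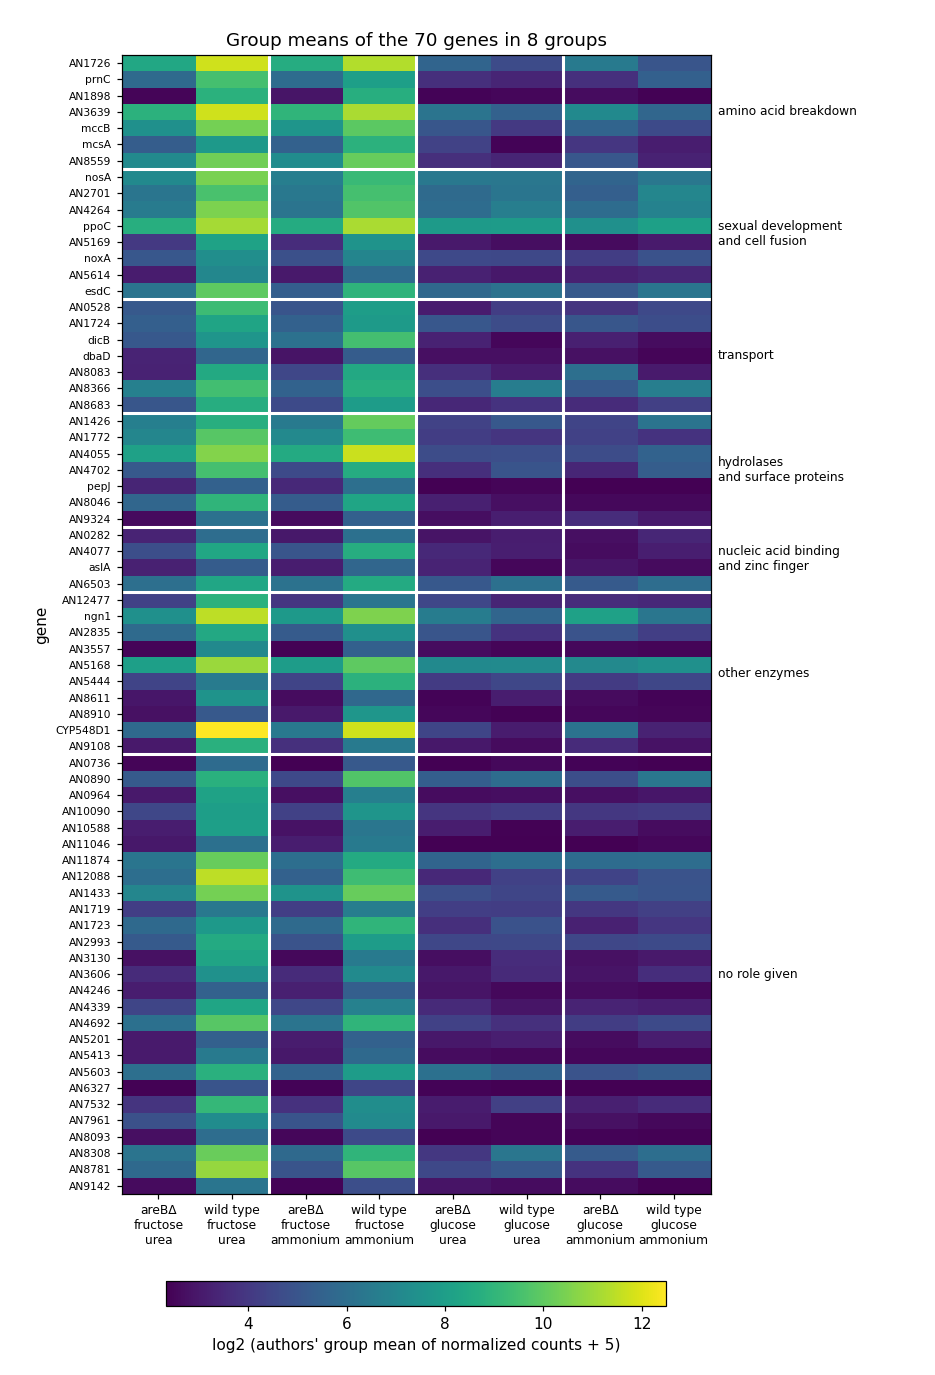
Heat map of the authors' mean normalized counts of the 70 genes, 1 row a gene, sorted by role, and 1 column a group, with colour on a log2 scale after 5 was added to each mean. The 2 wild type fructose columns are bright; the medians on fructose were 29.6 with urea and 24.2 with ammonium in areBΔ, against 351 and 248 in wild type.

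Across the 70 genes, the means on fructose with urea ran from 0.267 to 456 in areBΔ with a median of 29.6, against 26.5 to 5797 in wild type with a median of 351. On fructose with ammonium they ran from 0 to 502 in areBΔ with a median of 24.2, against 16.9 to 3485 in wild type with a median of 248. On glucose with urea the range was 0 to 231 in areBΔ with a median of 7.92, against 0 to 236 in wild type with a median of 7.88. The ranges of the strains overlapped in every medium, and the medians stood apart on fructose and lay close together on glucose. On glucose with ammonium the range was 0 to 275 in areBΔ with a median of 8.59, against 0 to 271 in wild type with a median of 8.33.

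**Figure D2:**
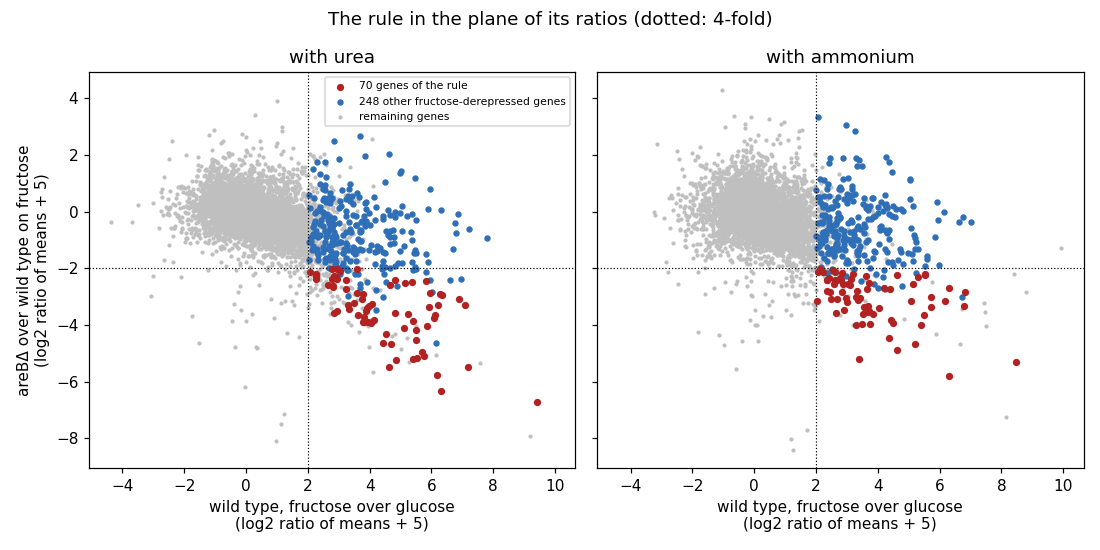
Log2 ratio of areBΔ over wild type on fructose against log2 ratio of fructose over glucose in wild type, after 5 was added to each mean, with urea on the left and ammonium on the right; each point is a gene, red the 70 genes, blue the 248 other fructose-derepressed genes and grey the remaining genes. Dotted lines are the 4-fold limits, and the genes lie on a continuum across them.

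The limits did not fall in a gap. Just inside them, the smallest of the 3 ratios was 4.04 for AN1426, 4.07 for AN6327 and 4.08 for AN1723. Just outside, it was 3.98 for AN11210, 3.95 for AN6377 and 3.95 for anbH1, which encodes a basic helix-loop-helix factor. An adjusted p was given for 44 of the 70 genes by the authors' deposited table, and a gene is called where it was under 0.05. On fructose 14 of these 44 were called lower in areBΔ with urea and 6 of 44 with ammonium, and none was called higher. Over all 8639 genes with a p, 1.39 % were called lower and 0.833 % higher with urea, and 1.39 % lower and 1.12 % higher with ammonium. The rule used these contrasts, so nothing is read from the difference. The 5 genes called in both fructose media were AN12088, AN0964, AN4702, AN7532 and AN8781, 9 were called with urea only, and AN0282 was called with ammonium only.

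The other 26 genes, or 37.1 % of the 70, had an empty p in each comparison that the authors deposited. Genes without a p made up 10.1 % of the other fructose-derepressed genes, 25 of 248, and 1.02 % of all genes, 89 of 8728. These 89 genes had means over the 8 groups from 6.38 to 1457, and 596 genes with a p had a lower mean than any of them. DESeq2, the tool that the submitters' notes name, is known to leave the p of a gene empty where 1 library holds an extreme count, or, for the adjusted p, where the mean is low. Whether a single library carried these 26 genes was not tested, because no values per library were at hand. Levels of the 26 are given below with that limit, and each is marked as having no p.

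Roles were read from the descriptions in the deposited table after the values had been seen, which gave 6 groups with 43 genes and left 27 genes with no role. Where 4 means of a strain are given below, fructose comes before glucose and, within each sugar, urea before ammonium. Genes without a symbol keep the identifier of the table.

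Amino acid breakdown was the role of 7 genes, 3 of them described as parts of a keto acid dehydrogenase. The branched-chain keto acid dehydrogenase complex takes the keto acids of leucine, isoleucine and valine to their CoA esters. AN1726, described as 3-methyl-2-oxobutanoate dehydrogenase of this complex, had means of 342, 394, 43.8 and 84.1 in areBΔ, against 3446, 2561, 20.1 and 27.1 in wild type. AN8559, the beta subunit of its E1 part, had means of 142, 149, 8.07 and 29.3 in areBΔ, against 1235, 1106, 5.4 and 4.92 in wild type. AN3639, a dihydrolipoamide transacylase described as an E2 subunit, had means of 456, 502, 70.5 and 137 in areBΔ, against 3452, 2360, 39.3 and 46.6 in wild type. By these means all 3 stood lower in areBΔ on fructose and higher in areBΔ on glucose.

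The beta subunit of 3-methylcrotonyl-CoA carboxylase, mccB, which acts further along leucine breakdown, showed the same order. Its means were 168, 192, 28.1 and 43.8 in areBΔ, against 1313, 971, 11.2 and 19.6 in wild type. The methylcitrate synthase gene mcsA, whose enzyme handles the propionyl-CoA left by valine and isoleucine, had means of 35, 40.0, 15.1 and 10.4 in areBΔ, against 217, 460, 0.401 and 3.71 in wild type. Proline use was represented by prnC, the pyrroline-5-carboxylate dehydrogenase gene, with means of 51.9, 55.5, 8.03 and 8.19 in areBΔ, against 711, 261, 5.4 and 38.5 in wild type. On glucose with ammonium prnC therefore stood lower in areBΔ, unlike the other 6. AN1898, whose orthologs act in tyrosine breakdown and melanin formation in species the description does not name, had no p and means of 0.533, 2.47, 0.302 and 1.38 in areBΔ, against 443, 414, 0.697 and 0.252 in wild type.

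For amino acid breakdown the median log2 ratio of areBΔ over wild type, after 5 was added to each mean, was -3.08 with urea and -2.69 with ammonium on fructose. On glucose it was 0.77 with urea and 0.99 with ammonium, against medians over all genes of 0.00 and -0.019. For the other fructose-derepressed genes it was 0.34 and 0.23. The rule required low wild type glucose means, over which the ratio is taken, and this itself favours higher ratios. None of the strain differences of these genes carried a call: 0 of the 6 genes with a p passed an adjusted p of 0.05 (DESeq2, the authors' deposited table) in any medium. The lower bound of the recovered unadjusted p was under 0.05 for 6 of 6 on fructose with urea and 4 of 6 on fructose with ammonium. It was under 0.05 for 0 of 6 on each glucose medium, and no other tool was run. Where adjusted p are tied, the p itself may lie above this bound. The rule chose the genes on the fructose contrasts, so nothing is read from their p there. Over all 8639 genes the bound was under 0.05 on fructose for 1012 with urea and 1123 with ammonium, and on glucose for 675 and 655. A search of all descriptions for branched-chain and propionate breakdown found 10 genes, 5 of them among the 70. Of the other 5, mccA, the alpha subunit gene of the same carboxylase, had fructose means of 736 with urea and 706 with ammonium in areBΔ, against 3242 and 2001 in wild type, and so fell outside the 4-fold limit with ammonium. mcdB, described as a 2-methylcitrate dehydratase, had fructose means of 171 and 188 in areBΔ, against 478 and 1260 in wild type. AN3591, described as similar to methylmalonate semialdehyde dehydrogenase, had 212 and 227 in areBΔ, against 580 and 800 in wild type. The areBΔ means of the last 2 were not lower in both fructose media: mcdA, also described as a 2-methylcitrate dehydratase, had fructose means of 82.1 and 96 in areBΔ, against 58.8 and 40.5 in wild type, and pcsA 365 and 435 in areBΔ, against 381 and 401 in wild type.

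Sexual development and cell fusion was the role of 8 genes. Aspergillus nidulans forms its sexual spores in closed fruiting bodies, the cleistothecia. The Zn(II)2Cys6 factor gene nosA, needed for mature cleistothecia, had means of 139, 98.6, 78.4 and 43.0 in areBΔ, against 1382, 599, 76.9 and 77.0 in wild type. The early sexual development gene esdC, which encodes a protein with a glycogen-binding domain, had means of 70.0, 35.9, 49.2 and 31.1 in areBΔ, against 997, 490, 66.2 and 73.3 in wild type. In both genes the 4 areBΔ means and the 2 wild type glucose means lay under both wild type fructose means. The rule required this of the wild type glucose means and, within each nitrogen source, of the areBΔ fructose means.

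The authors' deposited table gave esdC a log2 fold change of areBΔ over wild type of -2.69 ± 0.77 (recovered standard error, 3 libraries a group) on fructose with urea, with an adjusted p of 0.029. On fructose with ammonium the authors' deposited table gave esdC -2.46 ± 0.77 with an adjusted p of 0.055. AN4264, whose orthologs act in fusion of cells into a syncytium, had means of 90.4, 71.0, 55.2 and 56.1 in areBΔ, against 1418, 844, 98.4 and 109 in wild type. In the authors' deposited table AN4264 was at -2.77 ± 0.77 on fructose with urea, adjusted p 0.022, and at -2.40 ± 0.77 with ammonium, adjusted p 0.063. These 2 were the calls among the 7 genes of the group with a p, both on fructose with urea. In that medium 1.39 % of all 8639 genes with a p were called lower. The rule used this contrast, so nothing is read from these calls.

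The NADPH oxidase gene noxA, needed for cleistothecia, had means of 29.1, 23.0, 18.5 and 13.2 in areBΔ, against 159, 117, 17.9 and 24.2 in wild type. The fatty acid oxygenase gene ppoC, which makes oxylipin signals of spore development, had means of 416, 383, 231 and 169 in areBΔ, against 2247, 2359, 236 and 271 in wild type. Its relatives were not among the 70: ppoA had fructose means of 436 and 426 in areBΔ, against 277 and 218 in wild type, and ppoB had 35.4 and 52.8 in areBΔ, against 71.0 and 85.5 in wild type. The other 3 genes of the group, AN2701, AN5169 and AN5614, are described by roles of orthologs in cell fusion. AN5169 had means of 11.1, 7.19, 3.08 and 1.19 in areBΔ, against 285, 181, 1.46 and 3.34 in wild type, and AN2701 had 73.1, 79.0, 52.7 and 37.2 in areBΔ, against 756, 717, 72.6 and 124 in wild type.

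In this group the areBΔ mean on fructose was near the level of both strains on glucose: the median log2 ratio of fructose over glucose within areBΔ was 0.60 with urea and 0.80 with ammonium, against 3.80 and 2.77 in wild type. On glucose with ammonium the log2 ratio of areBΔ over wild type was below 0 in 8 of 8 genes, with a median of -0.73. It was below 0 in 38 of the 70 genes and 4556 of all 8728 genes. With urea it was below 0 in 4 of 8, with a median of -0.0015, and in 34 of the 70 and 4328 of all genes. No gene of the group was called on glucose. A search of all descriptions for cell fusion found 14 genes, 5 of them among the 70. Of the other 9, AN5458 was lowest in areBΔ against wild type on fructose, by log2 ratios of -2.77 with urea and -2.46 with ammonium. AN5776 was next, at -1.16 and -0.92, and the rest differed less, such as AN7297 at -0.07 and -0.27. The list of 19 sexual development genes matched by symbol held esdC, nosA and ppoC. It also held rosA, which was inside the limits and left out by name. By the authors' deposited table esdC and the glucanase gene mutA were called lower in areBΔ on fructose with urea and no list gene on fructose with ammonium. The median log2 fold change of that list was -0.79 with urea and -0.43 with ammonium, against -0.035 and -0.036 over all genes.

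Transport was the role of 7 genes. The mitochondrial di- and tricarboxylate carrier gene dicB had no p and means of 30.1, 65.0, 4.8 and 4.35 in areBΔ, against 194, 704, 0.602 and 1.39 in wild type. The major facilitator gene dbaD, of a secondary metabolite gene cluster, had means of 5.05, 2.23, 1.61 and 1.78 in areBΔ, against 46.9, 33.8, 1.69 and 0.567 in wild type. Both stood higher on fructose than on glucose in areBΔ as well, though dbaD by a log2 ratio of only 0.09 with ammonium. AN8683, whose orthologs reduce ferric chelates and act in copper and iron import, had means of 28.1, 19.4, 6.06 and 6.83 in areBΔ, against 396, 243, 9.24 and 14.2 in wild type. The authors' deposited table placed AN8683 at -2.68 ± 0.78 on fructose with urea, adjusted p 0.035, the 1 call among the 4 transport genes with a p. The rule used this contrast, in which 1.39 % of all genes with a p were called lower, so nothing is read from the call. Predicted membrane transporters without a named substrate were AN0528, AN1724, AN8083 and AN8366.

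Hydrolases and surface proteins made up 7 genes. AN4055, an acid phosphatase, had means of 280, 365, 20.9 and 20.6 in areBΔ, against 1550, 3330, 22.2 and 40.8 in wild type. AN1772, a feruloyl esterase, which frees ferulic acid from plant cell walls, had no p and means of 123, 134, 13 and 14.7 in areBΔ, against 929, 648, 10.0 and 9.1 in wild type. These 2 genes kept a clear fructose response in areBΔ, with log2 ratios of fructose over glucose of 3.46 and 3.86 for AN4055 and 2.83 and 2.82 for AN1772. The secreted metalloproteinase gene pepJ had no p and means of 5.37, 6.35, 0 and 0 in areBΔ, against 39.9, 61.0, 0.497 and 0 in wild type. AN4702, predicted to be anchored to the cell surface by a glycolipid, had means of 30.5, 19.6, 7.82 and 5.79 in areBΔ, against 711, 392, 26.2 and 35.3 in wild type. It was called in both fructose media: the authors' deposited table gave AN4702 -3.01 ± 0.80 with urea, adjusted p 0.012, and -2.69 ± 0.80 with ammonium, adjusted p 0.035.

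Nucleic acid binding and zinc finger proteins were 4 genes. The zinc finger factor gene aslA, which acts in vacuole formation and potassium storage, had no p and means of 4.6, 3.75, 5.08 and 2.52 in areBΔ, against 34.5, 46.3, 0.697 and 1.2 in wild type. AN0282, a predicted nucleic acid binding protein, had means of 5.04, 2.99, 2.29 and 1.73 in areBΔ, against 56.8, 63.2, 3.72 and 5.58 in wild type. The authors' deposited table gave AN0282 -3.01 ± 0.77 on fructose with ammonium, adjusted p 0.0076, and -2.47 ± 0.77 with urea, adjusted p 0.057. All 4 genes of this group had wild type fructose means that were somewhat lower with urea than with ammonium, by a median log2 ratio of -0.24.

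The remaining 10 enzymes were mostly without a p, 8 of 10. The cytochrome P450 gene CYP548D1, predicted to belong to a secondary metabolite cluster, had means of 50.6, 82.0, 16.7 and 68.2 in areBΔ, against 5797, 3485, 3.52 and 4.82 in wild type. With 5 added to each, its wild type mean was 104 times the areBΔ mean on fructose with urea and 40.1 times with ammonium, and it had no p. The acetyltransferase gene ngn1 had no p and means of 169, 224, 92.1 and 275 in areBΔ, against 2870, 1477, 44.3 and 75.1 in wild type. In both genes the areBΔ mean on glucose was above that of wild type. AN5168, a predicted nucleoside triphosphatase, had a p and means of 264, 241, 137 and 135 in areBΔ, against 1998, 1013, 142 and 170 in wild type. AN8910, a polyketide synthase gene, had no p and means of 1.79, 3.01, 0.623 and 0.589 in areBΔ, against 30.7, 201, 0.201 and 0.567 in wild type.

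Of the 27 genes with no role given, 8 had no p and 10 were called lower in areBΔ on fructose in at least 1 nitrogen source. Among all 8639 genes with a p, 181 were called lower in this way. Both fructose contrasts were part of the rule, so nothing is read from these calls. AN12088 had means of 58.4, 39.6, 6.24 and 15.9 in areBΔ, against 2870, 636, 14.7 and 25 in wild type. The authors' deposited table gave AN12088 -3.99 ± 0.79 with urea, adjusted p 9.74e-05, and -2.61 ± 0.79 with ammonium, adjusted p 0.041. AN8781 had means of 50.1, 26.5, 18.0 and 8.99 in areBΔ, against 1892, 922, 30.1 and 32.4 in wild type. AN8781 was at -3.51 ± 0.80 with urea, adjusted p 0.0014, and at -3.15 ± 0.80 with ammonium, adjusted p 0.0068, in the authors' deposited table. That both genes fell in both fructose media was set by the rule. So was the place of their areBΔ fructose means, nearer to the wild type glucose means than to the wild type fructose means.

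AN0964 and AN7532 were also called in both fructose media. The AN0964 means were 3.17, 1.62, 1.29 and 1.73 in areBΔ, against 289, 99.9, 1.41 and 2.77 in wild type. The AN7532 means were 9.46, 8.85, 3.64 and 4.21 in areBΔ, against 544, 154, 13.9 and 6.95 in wild type. AN1433, without a p, and AN8308, with one but not called, were also of unknown function. AN1433 had means of 122, 184, 21.9 and 31.4 in areBΔ, against 1312, 1108, 16.8 and 26.7 in wild type, and AN8308 had 71.4, 51.1, 10.8 and 32.7 in areBΔ, against 1139, 503, 75.7 and 58.2 in wild type. On glucose with urea AN8308 was lower in areBΔ by 2.35 on the log2 scale, the farthest of the 70 genes in that medium, and it was not called.

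**Figure D3:**
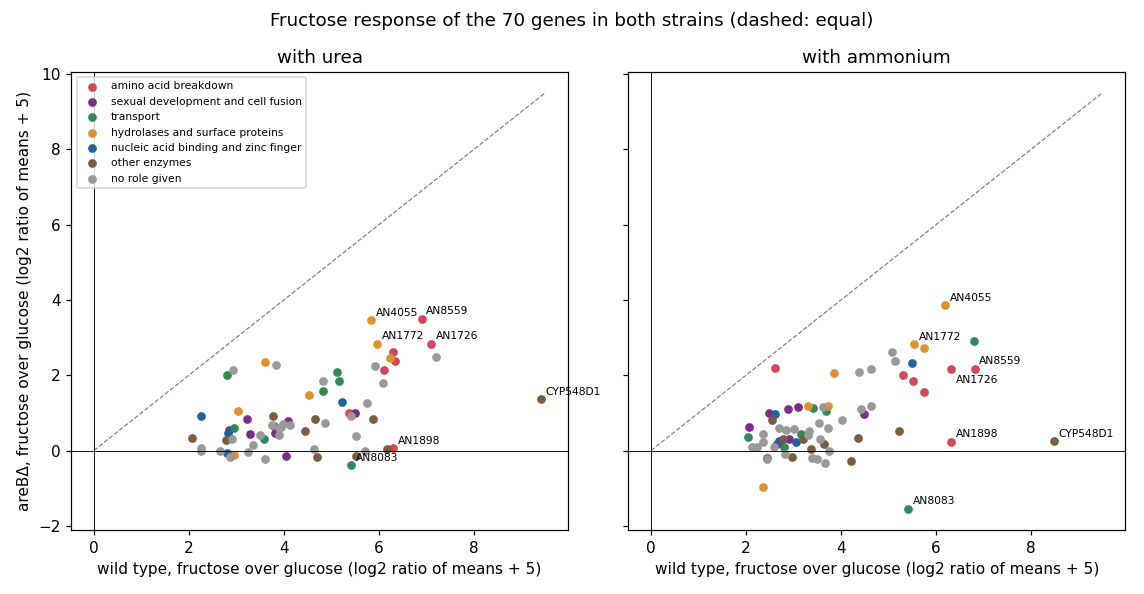
Log2 ratio of fructose over glucose in areBΔ (vertical) against the same ratio in wild type (horizontal), after 5 was added to each mean, with urea on the left and ammonium on the right; each point is 1 of the 70 genes, coloured by role, and the dashed line marks equal ratios. All points lie under the line, which the rule favours, and the areBΔ medians were 0.70 with urea and 0.56 with ammonium.

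How much of the fructose response was left in areBΔ varied among the 70 genes. Within areBΔ the median log2 ratio of fructose over glucose was 0.70 with urea and 0.56 with ammonium, and for the other fructose-derepressed genes it was 2.30 and 2.37. In wild type the medians of the 70 were 4.11 with urea and 3.45 with ammonium. The rule used the areBΔ fructose means and so set part of this difference. In areBΔ, 10 of the 70 genes kept a ratio of at least 4-fold in both nitrogen sources, as did 136 of the 248 other fructose-derepressed genes and 197 of all 8728 genes. Taken singly, 2.66 % of all genes reached 4-fold with urea and 2.96 % with ammonium. The 10 fell into amino acid breakdown with 4 genes, hydrolases and surface proteins with 4, and genes with no role with 2. At the other end, 42 of the 70 genes were under 2-fold in both nitrogen sources, as were 21 of the 248 and 7808 of all 8728 genes. The areBΔ fructose mean was within 2-fold of the wild type glucose mean in both for 43 of the 70, 7 of the 248 and 6435 of all genes.

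By role, amino acid breakdown kept a median log2 ratio of 2.38 with urea and 2.01 with ammonium, and hydrolases and surface proteins kept 2.36 and 2.05. The other enzymes kept 0.43 and 0.28, and sexual development and cell fusion 0.60 and 0.80. Examples at the high end were AN8559, with 3.49 and 2.17, and mccB, with 2.38 and 2.01. At the low end AN8083, a predicted transporter without a p, was at -0.40 with urea and -1.55 with ammonium, with areBΔ means of 4.89, 17.3, 8.01 and 60.6, against 356, 351, 3.5 and 3.4 in wild type. Genes without a p had lower ratios, with medians of 0.21 and 0.22, against 0.92 and 0.97 for those with one. Their median areBΔ means were 4.25, 5.31, 4.21 and 4.05, near the added 5, which presses ratios toward 0. For genes with a p these were 50.5, 34.8, 12.3 and 11.8. How much of the difference in ratios came from this was not tested.

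**Figure D4:**
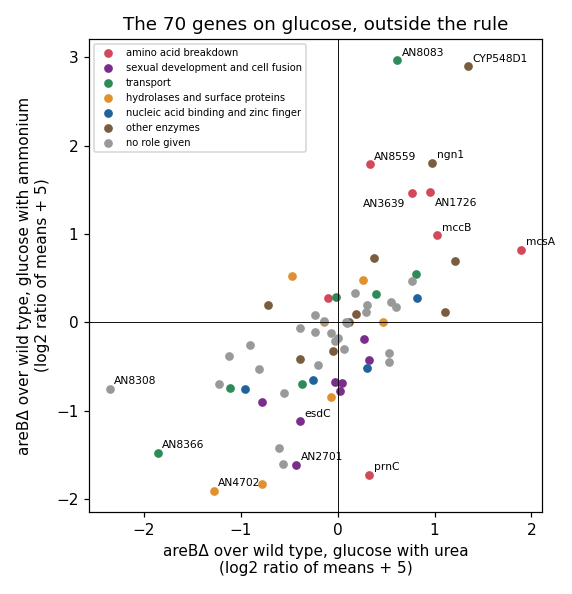
Log2 ratio of areBΔ over wild type on glucose, with urea on the horizontal axis and ammonium on the vertical axis, after 5 was added to each mean; each point is 1 of the 70 genes, coloured by role. The genes lie on both sides of 0 on both axes, with medians of 0.013 with urea and -0.11 with ammonium.

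On glucose the strain comparison was outside the rule, although the rule required the wild type glucose means to be low. On glucose with urea 0 of the 44 genes with a p were called (DESeq2, the authors' deposited table), where 1.39 % of all genes were called higher in areBΔ and 0.486 % lower. None of the 44 was called with ammonium either, where 1.06 % were called higher and 0.845 % lower. Every adjusted p of these genes was 1, and no recovered unadjusted p could be under 0.142 with urea or 0.148 with ammonium, so 0 of 44 passed an unadjusted 0.05. Over all 8639 genes with a p, the lower bound of the recovered p was under 0.05 for 675 with urea and 655 with ammonium. No other tool was run. No standard error could be recovered for these genes on glucose, so the size of a difference that would have been missed is unknown.

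The median log2 ratio of areBΔ over wild type on glucose was 0.013 with urea and -0.11 with ammonium for the 70 genes, 0.34 and 0.23 for the other fructose-derepressed genes, and 0.00 and -0.019 for all genes. Of the 70 genes, 48 were within 2-fold in both glucose media, as were 211 of the 248 other fructose-derepressed genes and 7968 of all 8728 genes. With urea 5 were at least 2-fold higher in areBΔ and 6 at least 2-fold lower, against 4.42 % and 1.76 % of all genes. With ammonium 6 were higher and 8 lower, against 3.51 % and 2.72 % of all genes. Only CYP548D1 was at least 2-fold higher in both, and only AN4702 and AN8366 at least 2-fold lower in both. Over all 8728 genes, 219 were at least 2-fold higher in both and 104 at least 2-fold lower in both. AN8366, a predicted membrane transporter, had glucose means of 22.3 with urea and 31.5 with ammonium in areBΔ, against 93.9 and 96.4 in wild type. Among the 30 genes with both wild type glucose means of at least 10, the medians were -0.31 with urea and -0.68 with ammonium; this choice by the wild type mean, over which the ratio is taken, itself favours lower ratios. Genes with a p had medians of -0.059 and -0.44, and genes without one 0.27 and 0.20.

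Urea and ammonium gave different wild type levels of many of these genes on fructose, a ratio the rule did not fix. The median log2 ratio of urea over ammonium was 0.62 in wild type for the 70 genes, 0.11 for the other fructose-derepressed genes and -0.022 for all genes. No test of it was possible on group means. In wild type 21 of the 70 genes were at least 2-fold higher with urea and 7 at least 2-fold lower, against 4.5 % and 2.23 % of all genes. In areBΔ the median of the 70 was 0.070, and 1 gene was 2-fold higher and 1 lower, though at levels that the rule held low. AN12088 was among those higher with urea in wild type, by 2.17 on the log2 scale, and prnC was higher by 1.43. The proline oxidase gene prnD, of the same proline cluster, was not among the 70 and had fructose means of 16.0 with urea and 28.1 with ammonium in areBΔ, against 836 and 59.0 in wild type. The genes higher with ammonium in wild type included dicB, lower with urea by a log2 ratio of -1.83, mcsA at -1.06 and AN4055 at -1.10. AN8910 at -2.53 and AN5444, described as a tryptophan synthase, at -2.32 were farthest in that direction, and neither had a p.

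**Figure D5:**
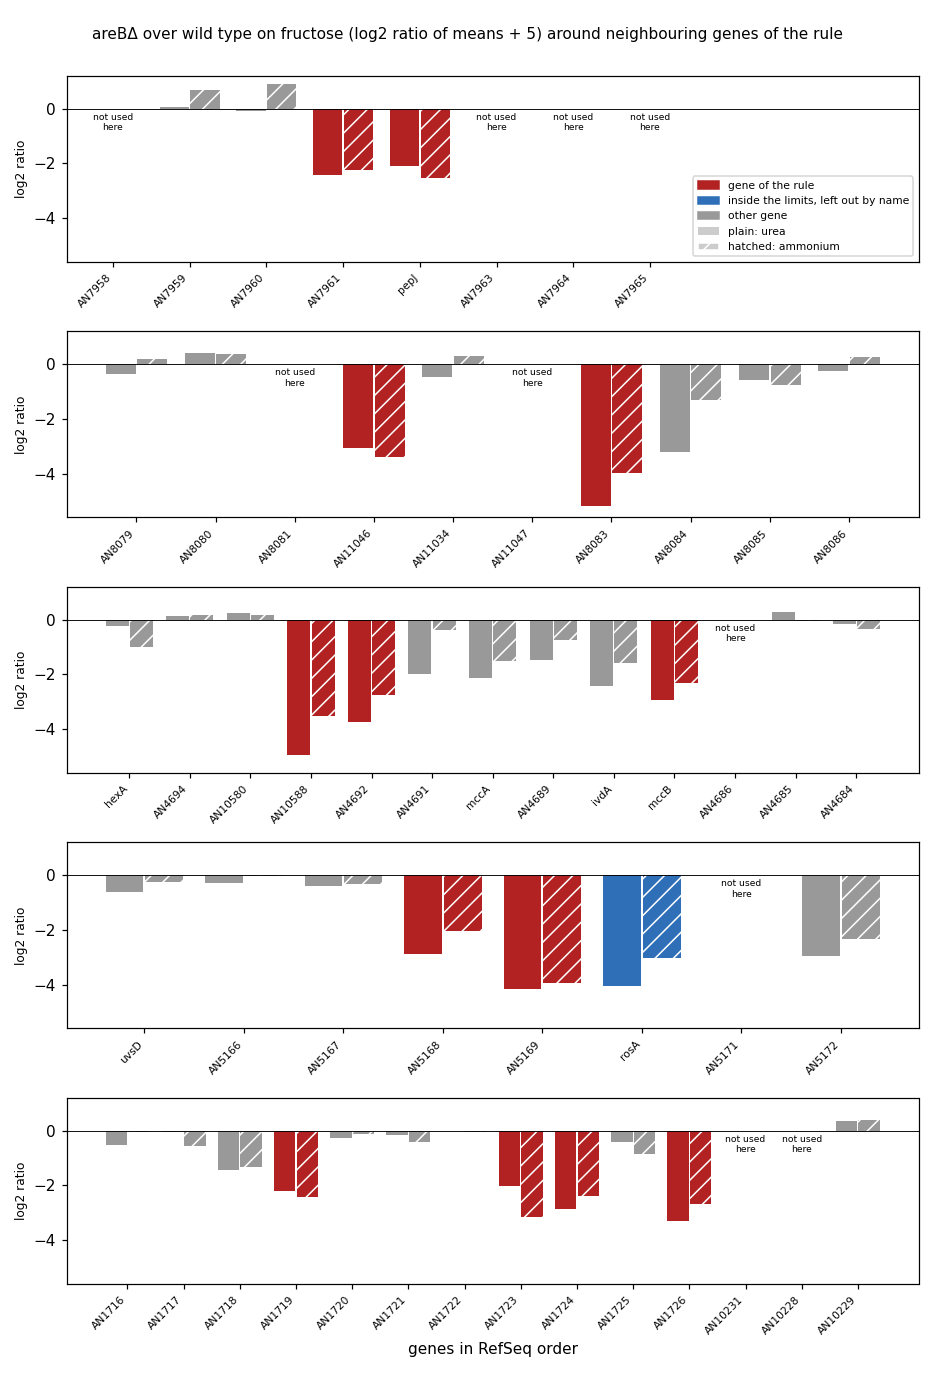
Log2 ratio of areBΔ over wild type on fructose with urea (plain bars) and ammonium (hatched bars), after 5 was added to each mean, for genes in RefSeq order around stretches that hold at least 2 of the 70 genes; red bars are the 70 genes, blue rosA, grey other genes, and the horizontal axis is gene order, not distance. Genes between mccB and AN4692, among them mccA and ivdA, had lower areBΔ means too and stayed inside 4-fold with ammonium.

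Some of the genes lay next to each other. In the gene order of the RefSeq annotation of assembly ASM1142v1, 66 of the 70 genes were found. Of these, 8 had another of the 70 as a direct neighbour, 11 had one within 3 genes and 13 within 5. The adjoining pairs were AN1723 and AN1724, AN5168 and AN5169, AN7961 and pepJ, and AN10588 and AN4692. AN1726 of the keto acid dehydrogenase lay within 3 genes of the first pair, and mccB within 5 genes of AN4692. AN1898 had none of the 70 within 5 genes. Within that distance it had hpdA, hmgA, fahA and maiA, which were inside the limits and left out by name. No share expected from gene order was computed for these counts.

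The stretch from mccB to AN10588 held genes of leucine breakdown. The isovaleryl-CoA dehydrogenase gene ivdA, next to mccB, had fructose means of 527 with urea and 623 with ammonium in areBΔ, against 2826 and 1869 in wild type. AN4692, of unknown function, had means of 63.0, 70.3, 14.5 and 12.8 in areBΔ, against 913, 501, 8.47 and 19.3 in wild type, and the authors' deposited table gave AN4692 -2.83 ± 0.77 on fructose with urea, adjusted p 0.016. AN10588 had no p and means of 3.76, 1.98, 3.84 and 3.74 in areBΔ, against 265, 75.6, 0.201 and 1.33 in wild type. These genes were all lower in areBΔ on fructose, by different factors. AN4689, between them, had fructose means of 64.9 and 83.7 in areBΔ, against 187 and 142 in wild type. The gene rosA, described as a negative regulator of sexual development, was left out by name. It lies next to AN5169 and had fructose means of 8.66 and 4.37 in areBΔ, against 221 and 71.3 in wild type.

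AN1723, whose orthologs sit at septa and hyphal tips, had means of 51.0, 52.7, 7.79 and 4.45 in areBΔ, against 223, 507, 25 and 10.3 in wild type. Its neighbour AN1724, a predicted transporter without a p, had 37.4, 39.9, 29.0 and 28.2 in areBΔ, against 306, 231, 20.9 and 21.7 in wild type. AN1725, which separates them from AN1726, had fructose means of 38.5 and 32.4 in areBΔ, against 53.3 and 62.6 in wild type, so the pattern was not shared by every gene of the stretch. AN7961, next to pepJ, had means of 24.0, 26.0, 3.06 and 1.93 in areBΔ, against 150, 141, 0.497 and 0.882 in wild type.

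No gene of the carbon regulator, nitrogen regulator or GATA factor lists was among the 70. Of the 14 carbon regulators matched by symbol, 0 were called in any medium by the authors' deposited table (DESeq2), with median log2 fold changes of -0.27 on fructose with urea and -0.13 with ammonium. By the authors' deposited table creA, the gene of the carbon repressor, was at -1.45 on fructose with urea, adjusted p 0.30, and at -2.04 with ammonium, adjusted p 0.058. Its fructose means were 88.2 and 72.9 in areBΔ, against 302 and 411 in wild type, so it fell outside the 4-fold limit with urea. Its wild type glucose means were 42.1 with urea and 62.1 with ammonium. Of the 9 nitrogen regulators and the 6 GATA factors only areB itself was called, lower in all 4 media. The median log2 fold changes were 0.08 and -0.01 for nitrogen regulators, and 0.10 and -0.40 for GATA factors, on fructose with urea and with ammonium.

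The other lists held few of the 70 genes. Of 19 genes for amino acid and amide catabolism, mccB and prnC were among the 70. The list also held hpdA, hmgA, fahA and maiA, which were inside the limits and left out by name. With these included, the list had medians of -1.54 with urea and -0.58 with ammonium on fructose, with prnD called lower and lamB higher with urea. Of 8 autolysis and protease genes, pepJ was among the 70, 1 was called lower with urea, and the medians were -0.85 and -0.62. None of the 70 was among the 12 conidiation genes, with medians of -0.59 and -0.70 and no call, the 7 hexose transport and phosphorylation genes, with -0.17 and 0.06 and no call, or the 12 glyoxylate cycle and gluconeogenesis genes, with -0.52 and -0.43 and no call. Ethanol use genes, 7 matched and none among the 70, had medians of 0.39 and 0.49, 2 called higher in areBΔ with urea and 1 with ammonium.

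By words in the descriptions, the 70 genes were of mixed kinds. Transport words stood in 11.4 % of them, against 14.9 % of the other fructose-derepressed genes and 7.99 % of all genes. Oxidation and reduction words stood in 12.9 %, against 16.9 % and 8.36 %. Words for enzymes of lipids and esters stood in 4.29 %, against 9.27 % and 1.65 %. Carbohydrate enzymes made up 5.71 %, against 10.1 % and 8.48 %, and secondary metabolism enzymes 4.29 %, against 1.61 % and 2.89 %. No function was given for 25.7 % of the 70, against 35.1 % and 28.5 %. These shares are a description without a test.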

How the data were processed

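Per the labels' protocols, libraries were made from RNA without its ribosomal part, with 14 amplification cycles, and read as pairs of 100 bp. The deposited table of the whole series holds 3 kinds of values: the authors' signal, a mean of normalized counts over the libraries of a group; the authors' fold change, a ratio of areBΔ over wild type in each medium, moderated before deposit; and the authors' adjusted p-value. Of tools, the submitters' processing notes name DESeq2 1.16.1 and HTSeq 0.9.1, and FastQC, GATK and Trimmomatic without a version; aligner, build and gene annotation were "not given in the sources used here".

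From these values the ratios of means, medians and counts were computed with Python 3.11.15, pandas 2.3.3, numpy 2.4.6 and scipy 1.17.1, and figures were drawn with matplotlib 3.10.9. A call is an adjusted p under 0.05 in the authors' deposited table, over 8639 genes. Standard errors after ± are recovered: each p came from inverting the Benjamini-Hochberg adjustment, and the log2 fold change was divided by its normal deviate, only where the deviate was bounded within 5 %. This step was tested on simulated data in which the fold changes were not moderated. The deposited fold changes were moderated, so whether a recovered value equals the fitted standard error was not tested. No count model could be run on group means. Gene order came from RefSeq (assembly ASM1142v1, 8261 genes matched), and promoter motifs were not analysed here.

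The members, roles and lists were chosen with earlier results of these data known. Named by rule were genes with a symbol, the 10 without one that had the highest wild type fructose means, adjoining genes, and genes at the limits. AN0282, AN0964, AN1898, AN2701, AN4702, AN5444, AN5614, AN7532, AN8083, AN8366, AN8683, AN8910 the genes around the adjoining pairs and the genes outside the 70 given for comparison were singled out after their values were seen.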

Additional observations from a re-analysis of the deposited data

How the results depend on the processing

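The number of genes inside the rule depended on its limits: 70 genes as reported, 106 with 1 added to each mean, 53 with 10 added, 113 with a 3-fold limit, 18 with an 8-fold limit, 28 with the deposited fold change in place of ratios of means (27 of them among the 70), and 5 when an adjusted p under 0.05 was also required in both fructose media. On glucose every adjusted p of the 44 genes was 1, so no other threshold or filter could change the count of 0 and stability cannot be read from it.
Calls among the 70 on fructose were 6 with urea and 3 with ammonium at an adjusted p under 0.01, and 22 and 17 under 0.1.

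The median log2 ratio of areBΔ over wild type on glucose with urea was 0.013 as reported, 0.047 with groups scaled to 1 total, -0.059 for genes with a p, 0.27 for genes without one and -0.31 for genes with wild type glucose means of at least 10. With ammonium it was -0.11 as reported, -0.14 with 1 added, -0.083 with 10 added, -0.074 scaled, -0.44 with a p, 0.20 without one and -0.68 at means of at least 10. The splits by p and by mean were chosen after seeing the data, and the split by the wild type mean, the denominator of the ratio, itself favours lower values. Wild type urea over ammonium on fructose was 0.62 as reported, 0.64 with 1 added, 0.60 with 10 added and 0.67 scaled. Fructose over glucose within areBΔ was 0.70 with urea as reported, 0.94 with 1 added, 0.61 with 10 added, 0.77 scaled, 0.92 with a p and 0.21 without one. With ammonium it was 0.56 as reported, 0.88, 0.40 and 0.59 in the same order of settings, 0.97 with a p and 0.22 without one. A neighbour within 5 genes gave 13 genes, within 3 genes 11, and a direct neighbour 8. The cause of these differences was not tested beyond what each setting changes.

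No paired analysis was possible because the table holds group means and no values per library. Leaving out replicates, another normalization, a filter on counts and the motif searches were not run for want of values per library or of sequences. Depth per library is unknown.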
